A study of Mus musculus with 24 samples.

Results

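The CXCR3 axis was examined as 4 genes, the chemokine ligands Cxcl9, Cxcl10 and Cxcl11 and their receptor Cxcr3, taken by gene symbol from the 54532 genes of each count table. RNA-seq was carried out on heart, stomach, muscle and tongue of Trex1-/- (labelled Trex1-KO) mice, which lack the cytosolic DNA exonuclease TREX1 and develop inflammation through the cGAS-STING pathway. In each tissue 3 mice given SN-011, a STING antagonist, were set against 3 control mice labelled as untreated, giving 24 samples in 8 groups of 3. The labels give SN-011 at 5 mg/kg, 3 times per week for 4 weeks, whereas the study's methods describe another schedule and a vehicle injection for the control mice. All 8 groups carry the Trex1 deletion, so there is no group with intact Trex1 here, and the drug reached the whole animal.

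CXCL9, CXCL10 and CXCL11 are interferon-inducible chemokines that are released by macrophages, dendritic cells, endothelial cells and stromal cells and that attract cells bearing CXCR3. In the reference mouse strain, however, the reading frame of Cxcl11 is shifted, as described below. CXCR3 is a G protein-coupled receptor found mainly on activated T helper 1 cells, cytotoxic T cells and NK cells. CXCL9 depends largely on interferon gamma, whereas CXCL10 also answers to type I interferon, IRF3 and NF-kB, the factors downstream of STING. In bulk tissue, fewer cells of a type and less RNA per cell cannot be told apart.

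The 3 ligand genes lie side by side on the minus strand of chromosome 5 (GENCODE M21, GRCm38) in a block of 44139 bases, at chr5:92321347-92328079 for Cxcl9, chr5:92346638-92348889 for Cxcl10 and chr5:92359544-92365485 for Cxcl11. Cxcr3 lies on chromosome X, at chrX:101731535-101734269. The 250 bases upstream of the RefSeq starts of Cxcl9 (chr5:92328080-92328329, minus strand, GRCm38.p6) and Cxcl10 (chr5:92348890-92349139, minus strand) are shown because the ratio of the pair differed between tissues. Capitals mark matches, on either strand, to the interferon-stimulated response element (ISRE, taken as GAAA, any 2 bases and GAAA), to the gamma-activated site (GAS, TTCNNNGAA) or to the NF-kB motif.
Cxcl9: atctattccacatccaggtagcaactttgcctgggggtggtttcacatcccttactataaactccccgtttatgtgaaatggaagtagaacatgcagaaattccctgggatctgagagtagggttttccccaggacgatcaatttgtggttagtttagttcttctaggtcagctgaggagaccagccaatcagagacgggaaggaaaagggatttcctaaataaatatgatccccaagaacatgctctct
Cxcl10: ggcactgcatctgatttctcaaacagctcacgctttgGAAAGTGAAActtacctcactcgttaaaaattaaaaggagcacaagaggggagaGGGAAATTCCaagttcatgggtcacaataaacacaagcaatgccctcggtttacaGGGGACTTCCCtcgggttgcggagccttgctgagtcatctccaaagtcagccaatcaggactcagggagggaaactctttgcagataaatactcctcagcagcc
The Cxcl10 window held 1 ISRE match, from 213 to 204 bases upstream, and NF-kB matches at 159 to 150, 104 to 95 and 103 to 94 bases upstream, of which the last pair overlap. No match to these exact letters was found in the same window of Cxcl9 or Cxcr3. Variant letters were not searched, so this does not show that these windows lack interferon or NF-kB elements. Of 32851 RefSeq promoter windows of this length, 2.98% held the ISRE letters, 7.02% the GAS letters and 7.25% the NF-kB motif. A match describes letters and not a bound site, and 3 of the 4 genes had an entry in the promoter table.

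Cxcl11 is classed as a polymorphic pseudogene in this annotation, since the reference strain carries a shifted reading frame. The 2 annotated transcripts, read from the start codon on the minus strand at chr5:92363155-92363214, differ by the 2 bases in capitals.
Cxcl11-202: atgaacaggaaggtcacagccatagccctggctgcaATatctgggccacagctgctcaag
Cxcl11-201: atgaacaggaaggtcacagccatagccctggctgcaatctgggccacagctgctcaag
Cxcl11-202, which follows the reference genome, had 36 codons before its first stop codon, and Cxcl11-201, which skips the 2 bases, had 99. The strain background that the study's methods name for all its mice is that of the reference genome. These mice would therefore carry the shifted frame, although the 2 bases were not checked in their reads. The Cxcl11 values below are RNA levels and say nothing of protein. With the shifted frame, a fall in Cxcl11 RNA cannot be read as the loss of a working CXCR3 ligand.

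Libraries held 14253416 to 18443329 assigned reads. Counts are given as CPM (counts divided by the library total, times 1000000, scaled by the trimmed mean of M-values over all 24 samples), in the order of replicates 1, 2 and 3. In 23 libraries 19798 to 24264 genes had counts, whereas muscle SN-011 replicate 2 had counts for 11546 genes, and results that rest on it are given with and without it. Tissue markers matched the labels, with summed levels of 19925 to 35019 CPM for heart markers in heart and 180783 to 226097 CPM for skeletal muscle markers in muscle. Stomach markers such as Atp4a, the proton pump of parietal cells, were however also found in control libraries of other tissues, at 392 CPM in heart, 174 CPM in muscle and 395 CPM in tongue for control replicate 2, with 3.49 to 216 CPM in the other control libraries and at most 6.79 CPM in any SN-011 library of these tissues. Control replicate 1 was from a female mouse in every tissue by its Xist counts (3060 to 13811, against at most 20 elsewhere). No reads were assigned to Trex1 in any library, but the gene overlaps Atrip, so this does not check the genotype.

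Cxcl10, the ligand closest to type I interferon and NF-kB, fell in the heart and was lower in every SN-011 sample than in every control sample of all 4 tissues. In heart, Cxcl10 stood at 78.2, 83.1 and 137 CPM in the control samples and at 31.9, 29.1 and 44.6 CPM in the SN-011 samples. The groups were separated by a wide gap, with a log2 fold change of −1.49 ± 0.24 (SE, n = 3 per group, adjusted p = 0.0332 in edgeR's quasi-likelihood test). In tongue the control samples were at 86.4, 399 and 189 CPM and the SN-011 samples at 73.3, 55.4 and 35.1 CPM. Control replicate 2 stood far above the rest there, and the log2 fold change of −2.04 ± 0.54 (adjusted p = 0.282) became −1.35 without it. In stomach the values were 13.4, 27.0 and 42.2 CPM against 10.9, 6.49 and 9.57 CPM, with a log2 fold change of −1.59 ± 0.44 (adjusted p = 0.0964). In muscle Cxcl10 was at 24.8, 24.3 and 35.4 CPM in the control samples and at 6.29, 0 and 10.8 CPM in the SN-011 samples. The 0 is in muscle SN-011 replicate 2, where a count of 0 allows up to 0.21 CPM before scaling and more after it. The muscle change was −2.28 ± 1.13 (adjusted p = 0.413) with that library and −1.70 (adjusted p = 0.0297) without it.

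Cxcl9, the most abundant of the 3 ligands by count in every group, was lower with SN-011 in all 4 tissues but passed the threshold in none of them. In stomach, Cxcl9 was at 25.9, 35 and 46.9 CPM in the control samples and at 9.88, 7.74 and 10.4 CPM in the SN-011 samples. The SN-011 samples lay close together below the lowest control, with a log2 fold change of −1.92 ± 0.30 (adjusted p = 0.0618). In muscle the values were 78.7, 70.9 and 105 CPM against 21.3, 16.2 and 42.6 CPM, a log2 fold change of −1.60 ± 0.34 (adjusted p = 0.146, or −1.40 and 0.0478 without SN-011 replicate 2). In tongue they were 167, 555 and 198 CPM against 134, 129 and 70.2 CPM, a log2 fold change of −1.46 ± 0.48 (adjusted p = 0.342). Leaving out tongue control replicate 2 brought this to −0.73. The heart was the exception to the separation of the groups, since SN-011 replicate 3, at 279.8 CPM, exceeded control replicate 2, at 247 CPM. The other heart values were 343 and 363 CPM in control samples and 134 and 143 CPM in SN-011 samples, and the log2 fold change was −0.77 ± 0.28 (adjusted p = 0.161).

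Cxcl11, the scarcest ligand, fell in the heart and was close to the detection limit with SN-011 in stomach and muscle. In heart, 208, 119 and 242 counts in the control samples compared with 22, 25 and 61 in the SN-011 samples, or 10.2, 7.31 and 11.6 CPM against 1.32, 1.47 and 3.43 CPM. The log2 fold change was −2.21 ± 0.38 (adjusted p = 0.0403). In stomach the control samples had 28, 50 and 41 counts and the SN-011 samples 3, 0 and 6, and the fitted log2 fold change of −3.72 ± 0.93 (adjusted p = 0.0817) rests on 9 counts in the treated group. In muscle there were 19, 24 and 26 counts against 4, 0 and 7, a log2 fold change of −2.40 ± 1.12 (adjusted p = 0.386), where the 0 is again in SN-011 replicate 2. Tongue held the highest control levels, at 11.9, 26.7 and 13.2 CPM against 7.34, 4.39 and 5.01 CPM, a log2 fold change of −1.63 ± 0.36 (adjusted p = 0.266).

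**Figure D1:**
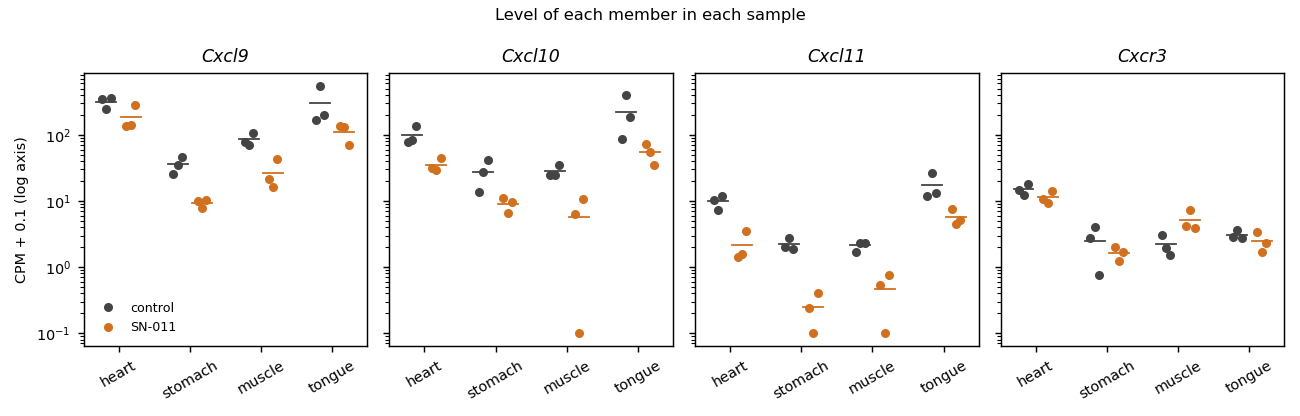
Level of the 3 ligands and Cxcr3 in each sample, as CPM + 0.1 on a log axis, by tissue, with control samples in grey and SN-011 samples in orange and bars at the group means. The orange points lie below the grey points for every ligand and tissue except Cxcl9 in heart, whereas those of Cxcr3 overlap the controls except in muscle, where they lie above.

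The SN-011 samples thus lay entirely below the control samples in 11 of the 12 combinations of ligand and tissue. Among all genes tested, such a separation downwards was seen for 13.4% in heart, 16.1% in stomach, 21.6% in muscle and 7.92% in tongue. With 3 samples per group an exact two-sided permutation test of one gene cannot give a p below 0.1. Adjusted over all genes, 2 of the 4 members were called lower in heart, where 0.328% of genes tested were. In stomach, muscle and tongue none was called, against backgrounds of 0%, 0.00704% and 0%. At an unadjusted p under 0.05, 3 members were lower in heart, stomach and tongue and 1 in muscle, where 11.6%, 11.4%, 7.33% and 5.8% of genes were. The call of Cxcl10 in heart was lost without control replicate 3 or without any 1 of the SN-011 replicates (adjusted p of 0.0609 to 0.194), and that of Cxcl11 without control replicate 1 or 3 or SN-011 replicate 1 or 2 (adjusted p of 0.0596 to 0.199). In tongue all 3 ligands were called without control replicate 1 (adjusted p = 0.0319 for Cxcl9, 0.00627 for Cxcl10 and 0.0131 for Cxcl11), and in stomach Cxcl9 was called without control replicate 1 (adjusted p = 0.0436).

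Averaged over the 4 tissues in one fit of all 24 samples, each of the 3 ligands fell. The average log2 fold change was −1.46 ± 0.21 for Cxcl9 (95% interval −1.91 to −1.02, adjusted p = 3.2e-04), −1.86 ± 0.34 for Cxcl10 (−2.57 to −1.15, adjusted p = 0.0019) and −2.51 ± 0.33 for Cxcl11 (−3.19 to −1.82, adjusted p = 1.5e-04). In this comparison 7.67% of the genes tested were called lower. Nothing in the labels says whether samples with one number came from one mouse, and the fit counts every sample as independent. Control replicate 1 was female in all 4 tissues, and if the numbers stand for mice, the p-values of this fit may be too small. When counts were summed over the tissues by treatment and number, leaving 3 against 3, the adjusted p was 0.0492 for Cxcl9, 0.0537 for Cxcl10 and 0.0462 for Cxcl11. Control replicate 2 had the highest stomach markers among the heart, muscle and tongue libraries of each tissue. Without it in every tissue the averages were −1.35 for Cxcl9 (adjusted p = 0.0035), −1.74 for Cxcl10 (adjusted p = 0.0231) and −2.37 for Cxcl11 (adjusted p = 0.0056). This does not remove the stomach markers, since tongue control replicate 3 still held 216 CPM.

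**Figure D2:**
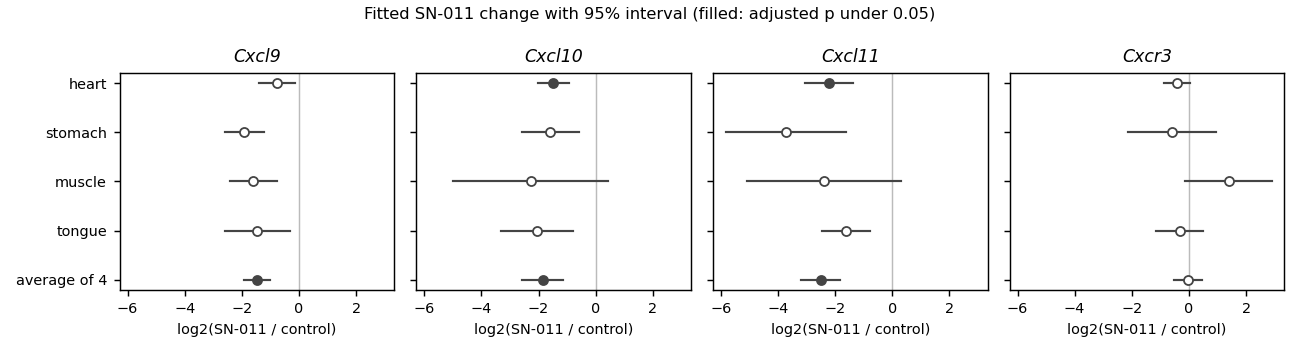
Fitted log2 fold change of SN-011 over control with its 95% interval for each gene, by tissue and as the average over the 4 tissues, with filled points where the adjusted p was under 0.05. The filled points are Cxcl10 and Cxcl11 in heart and the averages of the 3 ligands, and the intervals of Cxcr3 include 0 throughout.

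The size of the SN-011 change was also compared between tissues, as the difference of the fold changes in each of the 6 pairs of tissues. None of the 24 contrasts over the 4 genes passed. Among all genes, 6.95% passed between stomach and muscle, 2.01% between stomach and heart, 0.821% between stomach and tongue, 0.0355% between tongue and muscle, 0.00507% between muscle and heart and 0% between tongue and heart. Cxcl11 had the widest spread, from −3.72 in stomach to −1.63 in tongue, and that difference was −2.12 ± 0.90 on the log2 scale (adjusted p = 0.256). The lowest adjusted p was that of Cxcr3 between stomach and muscle, at 0.0976.

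The ligands differed in level between tissues. In the control samples the mean Cxcl9 level was 318 ± 62.0 CPM in heart (SD, n = 3), 307 ± 216 in tongue, 85.0 ± 18 in muscle and 36.0 ± 10.5 in stomach. Heart and tongue were not distinguished (log2 difference 0.05 ± 0.42, SE, adjusted p = 0.946), and every other pair was, down to muscle against stomach (adjusted p = 0.0191). Cxcl10 ran from 225 ± 160 CPM in tongue through 99.4 ± 32.5 in heart to 28.2 ± 6.30 in muscle and 27.5 ± 14.4 in stomach. Tongue and heart (adjusted p = 0.193) and muscle and stomach (adjusted p = 0.981) were not distinguished. Cxcl11 stood at 17.3 ± 8.22 CPM in tongue, 9.72 ± 2.20 in heart, 2.11 ± 0.45 in stomach and 2.02 ± 0.35 in muscle, where neither the upper pair (adjusted p = 0.298) nor the lower pair (adjusted p = 0.951) was distinguished. In all, 16 of 24 contrasts between tissues were called over the 4 genes. The share of all genes called was 51.6% for stomach and muscle, 42.5% for stomach and heart, 38.1% for tongue and muscle, 36.9% for stomach and tongue, 33.7% for muscle and heart and 29.1% for tongue and heart.

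The balance between Cxcl9 and Cxcl10 differed between tissues. Expressed per kilobase of exon, the ratio of Cxcl9 to Cxcl10 in the control samples ran from 1.98 to 3.27 in heart and from 2.18 to 2.37 in muscle. It ran from 0.831 to 1.45 in stomach and from 0.783 to 1.44 in tongue, with no overlap between the former pair of tissues and the latter. On the log2 scale the means were 1.28 ± 0.38 in heart, 1.17 ± 0.06 in muscle, 0.07 ± 0.41 in stomach and 0.08 ± 0.44 in tongue (SD, n = 3). The tissues differed in an exact permutation test over all assignments of the 12 control samples (p = 0.0072, adjusted over 3 ratios 0.0108), and also when tissues were permuted within the replicate number (p = 0.0226, adjusted 0.0391 in the exact permutation test). As a share of the 3 ligands per kilobase, Cxcl9 made up 69.5% ± 5.14 in heart and 68.4% ± 1.08 in muscle, against 49.9% ± 6.43 in stomach and 50% ± 7.09 in tongue (SD, n = 3). These shares used the union of a gene's exons. With the length of the first-numbered transcript, which for Cxcl10 is 1094 in place of 2252 bases, Cxcl10 had the larger mean share in stomach and tongue, at 62.5% in both, and Cxcl9 kept 53.5% in heart and 52.1% in muscle. The differences between tissues do not depend on which annotated length is used, since the same length divides every sample. Whether the tissues used different transcripts of a ligand was not tested.

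In the control samples the ratio of Cxcl11 to Cxcl10 gave no difference between tissues past the threshold. Its log2 means per kilobase lay between −4.52 in muscle and −4.08 in heart (p = 0.836 in the exact permutation test, adjusted 0.836). The ratio of Cxcl11 to Cxcl9 mirrored that of Cxcl10, with log2 means of −5.36 in heart, −5.69 in muscle, −4.38 in stomach and −4.36 in tongue (p = 0.0064 in the exact permutation test, adjusted 0.0108).

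In the SN-011 samples the log2 means of Cxcl11 to Cxcl10 ran from −7.03 in stomach to −3.31 in muscle (p = 0.0117 in the exact permutation test, adjusted 0.0351), and those of Cxcl9 to Cxcl10 from −0.35 in stomach to 3.55 in muscle (p = 0.0319 in the exact permutation test, adjusted 0.0478). With tissues permuted within the replicate number both had an adjusted p of 0.0703 in the exact permutation test, and the muscle means include the library with 0 counts of Cxcl10 and Cxcl11. Cxcl11 to Cxcl9 did not pass (adjusted p = 0.122 in the exact permutation test).

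In heart, the level of Cxcl11 relative to both other ligands was lower in every SN-011 sample. The ratio of Cxcl11 to Cxcl9 ran from 0.0236 to 0.0255 in the 3 heart control samples and from 0.00798 to 0.00981 in the 3 SN-011 samples. This was a log2 difference of −1.48 with no overlap, and p = 0.1 in the exact permutation test is the smallest that 3 against 3 can give (adjusted over the 12 ratio tests 0.24). Cxcl11 to Cxcl10 in heart ran from 0.0505 to 0.0777 in control and from 0.025 to 0.0459 in SN-011 samples. In stomach the corresponding log2 differences were −2.30 and −2.72, also without overlap, but they rest on SN-011 counts of 0 to 6. In tongue the ratios overlapped, with log2 differences of −0.26 for Cxcl11 to Cxcl9, 0.28 for Cxcl11 to Cxcl10 and 0.53 for Cxcl9 to Cxcl10 (exact permutation p of 0.2 to 0.7). Cxcl9 to Cxcl10 in muscle SN-011 samples was 2.52 and 2.94 in 2 samples and 217 in replicate 2, where Cxcl10 had 0 counts and a pseudocount of 0.5 set the ratio. None of the 12 ratio tests passed, a threshold that 3 samples against 3 cannot reach.

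**Figure D3:**
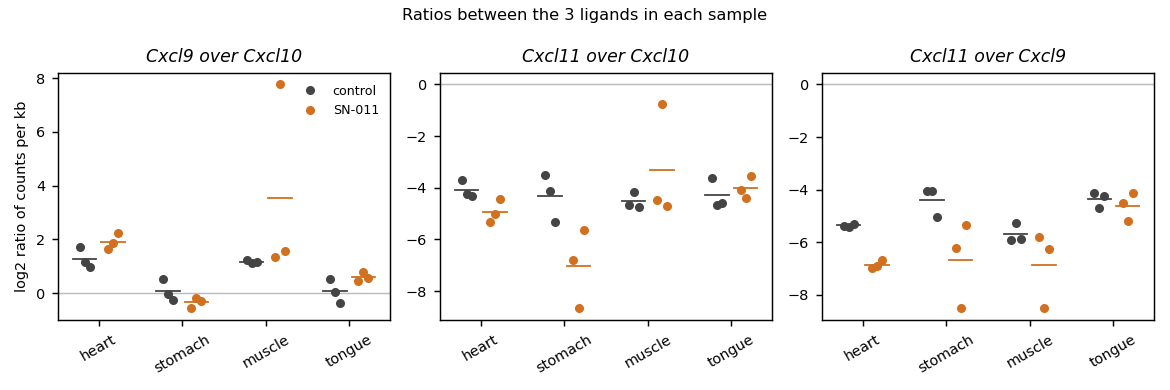
Log2 ratios between the 3 ligands in each sample, from counts per kilobase of exon with a pseudocount of 0.5, by tissue, with control samples in grey, SN-011 samples in orange and bars at the group means. Cxcl9 to Cxcl10 sits higher in the heart and muscle controls than in the stomach and tongue controls, and the outlying muscle SN-011 point is the library with 0 Cxcl10 counts.

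Cxcr3, the receptor, was called in no tissue and not on average. In heart it stood at 14.6, 12.4 and 18.1 CPM in the control samples and at 10.8, 9.12 and 13.9 CPM in the SN-011 samples. The groups overlapped, with a log2 fold change of −0.41 ± 0.21 (adjusted p = 0.273). In stomach the values were 2.63, 3.97 and 0.648 CPM against 1.90, 1.14 and 1.60 CPM, and in tongue 2.71, 3.54 and 2.7 CPM against 3.31, 1.59 and 2.24 CPM. Both overlapped, with log2 fold changes of −0.59 ± 0.68 (adjusted p = 0.624) and −0.32 ± 0.35 (adjusted p = 0.708). Muscle went the other way, at 2.98, 1.87 and 1.44 CPM in control and 4.05, 7.28 and 3.81 CPM in SN-011 samples, as 11.5% of genes tested there did without overlap. The muscle log2 fold change was 1.39 ± 0.63 (adjusted p = 0.372), and 0.90 (adjusted p = 0.158) without SN-011 replicate 2, which held the highest value. Averaged over the 4 tissues the change was −0.03 ± 0.24 (95% interval −0.52 to 0.47, adjusted p = 0.99993), with every sample counted as independent. The average changes of the 3 ligands lie outside this interval, but it joins a rise in muscle with lower values elsewhere. In stomach (−2.13 to 0.96) and heart (−0.88 to 0.05) the Cxcr3 interval of the tissue includes the Cxcl9 change there. In tongue (−1.15 to 0.50) and muscle (−0.13 to 2.90) it does not. The Cxcl9 change has an interval of its own, which overlaps that of Cxcr3 in tongue (−2.60 to −0.33). In muscle (−2.42 to −0.78) it does not overlap, with SN-011 replicate 2 included. Whether the change of a ligand differs from that of the receptor was not tested.

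Among the control samples Cxcr3 was highest in heart. Its level was 15.1 ± 2.89 CPM in heart (SD, n = 3), above 2.98 ± 0.49 in tongue, 2.42 ± 1.67 in stomach and 2.10 ± 0.79 in muscle. Heart exceeded each of the others (log2 differences of 2.34 to 2.84, adjusted p of 1.9e-04 to 0.0011), and the others were not distinguished from each other (adjusted p of 0.447 to 0.767). T cell markers, a list of 8 genes, summed to 114 to 224 CPM in heart control samples, 67.0 to 117 in tongue, 48.4 to 59.5 in stomach and 36.1 to 46.9 in muscle. With SN-011 the sums were 103 to 158 CPM in heart, 60.9 to 94.9 in tongue, 22.5 to 64.0 in stomach and 22.6 to 31.4 in muscle. The muscle sums thus lay below all control sums while Cxcr3 lay above. None of the 8 T cell markers was called in any tissue. NK and cytotoxic markers ran from 97.9 to 188 CPM in heart control samples and from 94.3 to 129.7 CPM in SN-011 samples, and 4 of the 8 tested were lower at an unadjusted p under 0.05, beside 11.6% of all genes. In stomach 3 of 6 were lower at this threshold, beside 11.4%, and in muscle and tongue 0 of 6. The part of either cell type in the ligand or receptor levels was not tested.

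The interferon gamma arm was taken as 12 genes, namely the cytokine, its receptor, its signalling genes and its targets. Of these, 9 of 12 tested were lower at an unadjusted p under 0.05 in heart, 6 of 11 in stomach, 2 of 11 in muscle and 7 of 12 in tongue, and none passed the adjusted threshold. The share of all genes tested that were lower at this threshold was 11.6%, 11.4%, 5.8% and 7.33%. This list, like the others, was chosen with earlier results of these data known, so its counts are a description and not a test. The median log2 fold change was −0.64 in heart, −0.57 in stomach, −0.47 in muscle and −0.79 in tongue, where the median of all genes tested lay between −0.08 and 0.00. Ifng itself, the cytokine made by T and NK cells, averaged 2.27 CPM in heart controls and 0.555 CPM with SN-011 (log2 fold change −2.01, adjusted p = 0.107). Cd274, which encodes the inhibitory ligand PD-L1 and is a target of this pathway, had log2 fold changes of −1.02 in heart, −1.15 in stomach, −0.99 in muscle and −1.34 in tongue. Ifngr1, a subunit of the interferon gamma receptor, lay between −0.41 and 0.18.

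Of 10 genes of the type I interferon arm tested in each tissue, 2 were lower at an unadjusted p under 0.05 in heart, 0 in stomach, 2 in muscle and 3 in tongue, beside 11.6%, 11.4%, 5.8% and 7.33% of all genes tested. At the same threshold 2 were higher in stomach (Ifnar2 and Irf3) and 1 in tongue (Irf3). None passed the adjusted threshold, and the medians were −0.17, 0.02, −0.52 and −0.15. This list held mainly sensing, receptor and signalling genes and no effector targets such as Isg15 or Ifit3, whereas the interferon gamma list included targets. The lists are therefore not matched, and their counts do not compare the responses to the cytokines. The study reported lower ISG15 and IFIT3 after SN-011. Irf7, the interferon-induced regulator of the pathway, averaged 1168 CPM in heart controls and 1160.3 CPM with SN-011, and its log2 fold changes in stomach, muscle and tongue were −0.68, −0.58 and −0.42. Sting1, which encodes the target of SN-011, had log2 fold changes of −0.70 in heart (adjusted p = 0.133), 0.22 in stomach, −0.51 in muscle and −0.56 in tongue. Ifnb1, which encodes interferon beta, averaged at most 0.31 CPM in any group and was not tested. Of the NF-kB arm, 3 of 7 genes were lower at an unadjusted p under 0.05 in heart, 0 of 7 in stomach, 0 of 6 in muscle and 5 of 7 in tongue, 1 was higher in stomach, and the medians were −0.34, 0.14, 0.18 and −0.52. Tnf was at 5.24 CPM in heart controls and 1.57 CPM with SN-011 (log2 fold change −1.73, adjusted p = 0.117), and Nfkbia, an NF-kB target and inhibitor, had log2 fold changes of −0.12 in heart, 0.65 in stomach, 0.36 in muscle and −0.52 in tongue.

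**Figure D4:**
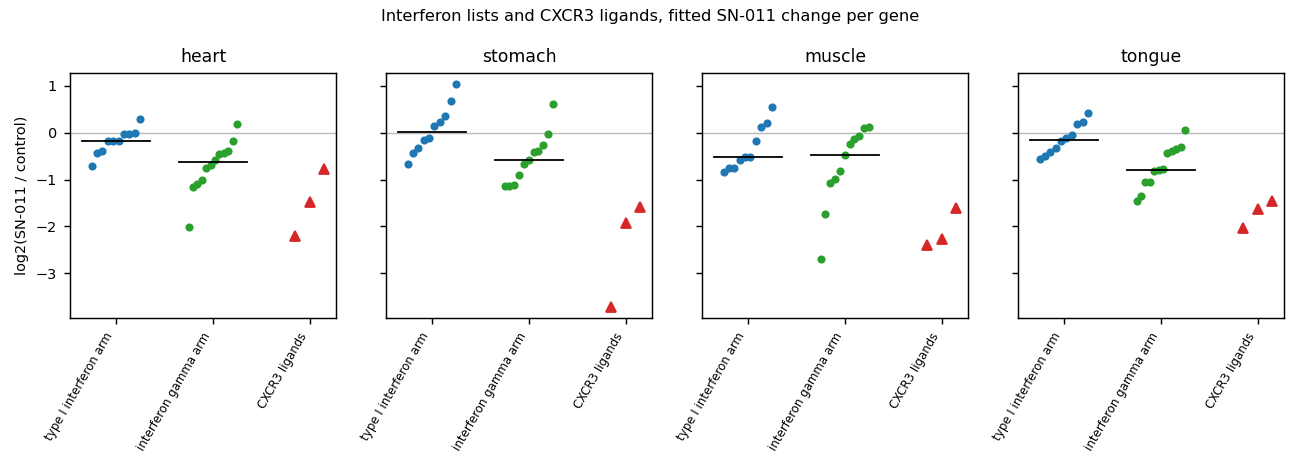
Fitted log2 fold change of SN-011 over control for each tested gene of the type I interferon arm (blue), of the interferon gamma arm (green, medians −0.64 in heart, −0.57 in stomach, −0.47 in muscle and −0.79 in tongue) and for the 3 CXCR3 ligands (red triangles), by tissue, with black bars at the list medians. In stomach the ligands lie below every gene of both lists, and in the other tissues they overlap the lowest genes of the interferon gamma arm. The type I list holds mainly sensing, receptor and signalling genes and the gamma list also targets, so the lists are not matched.

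Of the other CXC chemokines and receptors, 1 gene each was called, both higher and both in heart, where 0.52% of genes were called higher. Ppbp, which encodes a platelet chemokine for CXCR2, averaged 1.01 CPM in heart controls and 4.05 CPM with SN-011 (log2 fold change 1.99, adjusted p = 0.0454). Cxcr4, the receptor of CXCL12, averaged 25.2 CPM and 44.4 CPM (log2 fold change 0.82, adjusted p = 0.0481), and its log2 fold changes in stomach, muscle and tongue were 1.49, 0.87 and 0.87. Cxcr6, another receptor of effector T cells, had log2 fold changes of −0.48, −1.75, 0.35 and −0.66 in heart, stomach, muscle and tongue. Cxcl16, its ligand and itself induced by interferon gamma, lay between −0.70 and −0.41. Cxcl12, a constitutive stromal chemokine, was at 71.3 CPM in heart controls and 71.4 CPM with SN-011. Genes that couple CXCR3 to its effects or clear its ligands were not called in any tissue, and Dpp4, the peptidase that trims and weakens the 3 ligands, had log2 fold changes between −1.04 and 0.10.

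Within 100 kb of the ligand block no other gene was called in any tissue. Art3, which runs through the block on the plus strand and shares 133 exon bases with Cxcl10, had log2 fold changes of 0.71 ± 0.16 in heart (adjusted p = 0.0754) and 1.86 ± 0.55 in stomach (adjusted p = 0.105), opposite in sign to Cxcl10. Naaa, on the same strand as the ligands, had log2 fold changes of −0.59 in heart and 0.44 in muscle. Cxcl11 shares 1582 exon bases with the pseudogene Gm2673 on the other strand, which had 0 counts in every library. Without knowing whether counting used strand, reads from the shared bases cannot be assigned with certainty, so the Cxcl11 levels per kilobase are the least certain of the 4.

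Markers of other cell types differed between some of the groups. Tongue epithelium markers, keratins that also mark the squamous forestomach, summed to 89.1 to 202 CPM in stomach controls and 361 to 1175 CPM with SN-011, and stomach markers to 4315 to 7718 CPM against 1649.7 to 4644 CPM. Mitochondrial genes took 3.00% to 7.24% of stomach control reads and 7.08% to 14.9% of SN-011 reads. In tongue, neutrophil markers summed to 309 CPM in control replicate 3 and to at most 4.59 CPM in the other 5 libraries. Fibroblast markers summed lower in every heart SN-011 library (1158 to 1294 CPM) than in every control (1659.9 to 2410.2 CPM). Of this list Col3a1 (log2 fold change −1.19), Col1a1 (−0.77) and Pdgfra (−0.46) were lower in heart, while Dcn hardly moved (−0.08). In muscle the sums of fibroblast markers (569 to 1151 CPM against 1476 to 2216 CPM) and endothelial markers (181 to 269.6 CPM against 311 to 392 CPM) also separated. Among single genes, 13.4% in heart and 21.6% in muscle separated downwards. Macrophage markers, by contrast, overlapped between the groups in every tissue, as in muscle with 489.8 to 569 CPM in control and 526 to 722 CPM in SN-011 samples. The part of these signals in the ligand changes was not tested.

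Across the 8 group means, the genes whose pattern was most like that of each member were listed as a description over 15826 genes, with points that share libraries within a group. Closest to Cxcl9 were Aida (Pearson r = 0.98) and Prf1, the perforin of cytotoxic cells (r = 0.97), with Gbp3, an interferon-induced GTPase, among the 5 nearest. Closest to Cxcl10 was Parp10 (r = 0.98). Closest to Cxcl11 was Sept10 (r = 0.97), and Ifng was second nearest (r = 0.96). Closest to Cxcr3 was Dct (r = 0.98), followed by Itgb2, the leukocyte integrin beta chain (r = 0.97), Dync1h1 (r = 0.97) and Nagpa (r = 0.96). With 8 points and 15826 genes, high values of r are no sign of a shared function. Among the members, Cxcl10 and Cxcl11 were most alike (r = 0.93), Cxcl9 and Cxcl10 less so (r = 0.82), and Cxcr3 was closer to Cxcl9 (r = 0.60) than to Cxcl11 (r = 0.29) or Cxcl10 (r = 0.20).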

How the data were processed

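RNA-seq counts of 24 samples were used as the authors deposited them, as whole-number counts of reads per Ensembl gene and sample, made from reads aligned with HISAT2 to mm10. The labels name HTSeq and the study's methods name featureCounts with uniquely mapped pairs after trimming, so the counter, and whether it used strand, are not settled. Groups, by tissue and treatment, came from the labels. Gene symbols were taken from GENCODE M21, which held 54495 of the 54532 identifiers.

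Each tissue was fitted alone with edgeR 4.0.16 (R 4.3.3, TMM scaling, filterByExpr with a minimum count of 10 and a minimum total of 15, quasi-likelihood F test). P-values were adjusted by the Benjamini-Hochberg method over every gene in the fit, with a threshold of 0.05. A joint fit of all 24 samples gave the average over tissues, the contrasts between tissues and their interaction with treatment. Ligand ratios were taken as log2 of counts plus 0.5 per kilobase of exon and compared by exact permutation tests over samples (Python 3.11.15). Promoter letters were from RefSeq (GRCm38.p6). The fits were run on simulated counts with the same dispersion for every gene and with changes only in genes above a set level. This does not cover counts as low as those of Cxcl11 in stomach and muscle. At the median depth a count of 0 allows 0.185 CPM before scaling, which covers counting error only. P-values measure the spread between these samples, since no label says which came from one mouse. Control replicate 1 was female in every tissue. Same-numbered samples of different tissues had mean correlations of 0.236 in control and 0.0742 with SN-011, and other numbers −0.112 and −0.0358. These were taken on deviations from group means, which cancel within a group, so the values for other numbers are no separate baseline. Whether the numbers stand for mice was not tested. The members and gene lists were chosen with earlier results of these data known. Genes named were the 4 members, the genes within 100 kb of the ligands, the 5 genes nearest in pattern to each member and members of the fixed lists. Alternatives were DESeq2 1.42.0, edgeR's exact test, other scalings and filters, a replicate block, a limma 3.58.1 fit with samples of one number taken as 1 mouse, summed counts, other gene lengths and each sample left out in turn.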

Additional observations from a re-analysis of the deposited data

How the results depend on the processing

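Of 735 recomputed values, 637 kept their direction and their side of the threshold or, for counts, stayed within 1.5 times. Counts of genes called moved with most settings. In heart it went from 137 to 249 with library size alone, 1888 with no filter, 265 with at least 10 counts in every sample, 918 with edgeR's exact test, 1361 with DESeq2 and 1 in the joint fit. In stomach it went from 0 to 1368 with no filter, 126 with at least 10 counts, 1835 with edgeR's exact test, 2389 with DESeq2 and 2738 in the joint fit. In muscle it went from 2 to 1 with DESeq2's size factors or library size alone, 110 with no filter, 75 with at least 10 counts, 479 with edgeR's exact test, 880 with DESeq2 and 474 in the joint fit. In tongue it went from 0 to 18 with no filter, 253 with edgeR's exact test, 418 with DESeq2 and 4 in the joint fit. The average over tissues went from 2367 genes to 92 with summed counts and to 713 without control replicate 2 in any tissue, an alternative chosen after seeing the data. The causes were not tested.

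Fitted changes of the ligands kept their sign in every alternative, while their calls did not hold. In heart, Cxcl9 was called with no filter (−0.79) and with DESeq2 (−0.77), and Cxcl10 (−1.50) and Cxcl11 (−2.22) were lost in the joint fit (adjusted p = 0.736 and 0.342). In stomach, Cxcl9 was called with no filter (−1.92), at least 10 counts (−1.87), edgeR's exact test (−1.92), DESeq2 (−1.94) and the joint fit (−1.95), Cxcl10 with no filter (−1.59), the exact test (−1.59) and DESeq2 (−1.60), and Cxcl11 with no filter (−3.73), the exact test (−3.72), DESeq2 (−3.80) and the joint fit (−3.75). In muscle, Cxcl9 was called with the exact test (−1.60), DESeq2 (−1.65) and the joint fit (−1.67). In tongue, Cxcl9 was called with DESeq2 (−1.47), Cxcl10 with the exact test (−2.04) and DESeq2 (−2.05), and Cxcl11 with both (−1.63). On average, Cxcl10 was lost with summed counts (−1.80). The Cxcr3 average turned to 0.0011 with library size alone, 0.045 with samples of one number taken as 1 mouse, 0.052 without control replicate 1 and 0.10 without control replicate 2. With at least 10 counts in every sample Cxcl11 in stomach and Cxcl10 and Cxcl11 in muscle were not tested.

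Replicate numbers did not pair the samples, since correlations of same-numbered deviations within a tissue ran from −0.453 to 0.304. With the replicate block 242 genes were called in heart, 181 in stomach and 0 in muscle and tongue, and Cxcl9 in stomach was called (−1.88, adjusted p = 0.0415), while no other call of a ligand or Cxcr3 changed. Same-numbered control samples of different tissues had a mean correlation of 0.236, and other numbers −0.112. The second value follows largely from the first, since deviations cancel within a group, and is no separate baseline.

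Leaving out single samples gave 1 to 787 genes in heart, 0 to 64 in stomach, 0 to 1103 in muscle (the highest without SN-011 replicate 2) and 0 to 2135 in tongue (the highest without control replicate 1). The ranges of the changes were −1.72 to −1.19 for Cxcl10 and −2.81 to −1.97 for Cxcl11 in heart, −2.15 to −1.67 for Cxcl9 in stomach, −2.04 to −1.40 for Cxcl9 and −3.11 to −1.70 for Cxcl10 in muscle, and −1.75 to −0.73 for Cxcl9, −2.42 to −1.35 for Cxcl10 and −1.87 to −1.18 for Cxcl11 in tongue. The average change of Cxcr3 ran from −0.14 to 0.12, and its difference in level in stomach from −1.05 to 0.18. The number of contrasts of the SN-011 change called ran from 0 to 1. The log2 difference of the Cxcl11 to Cxcl10 ratio in muscle ran from −0.078 to 1.90, and that of Cxcl11 to Cxcl9 in tongue from −0.50 to 0.035. The tests of ligand ratios between tissues in the control samples kept their side of the threshold in all alternatives run, whereas in the SN-011 samples Cxcl9 to Cxcl10 and Cxcl11 to Cxcl10 lost theirs with tissues permuted within the replicate number (adjusted p = 0.0703 for both in the exact permutation test). Cxcl11 counts of 0 to 7 in the stomach and muscle SN-011 samples limit what depth can show there.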
